A study of Mus musculus with 4 samples.

Results

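The somatostatin family in mice has 7 genes in the deposited table: the ligand genes Sst and Cort, and the receptor genes Sstr1, Sstr2, Sstr3, Sstr4 and Sstr5. They were taken by gene name from 55414 rows, and all 7 passed the filter on low counts that left 17017 tested genes. The family was chosen by its measured values, because Sst was lower and Sstr2 higher in the same comparison that is described here. Differences between the groups in these 7 genes are therefore described, and the calls given for them are read as no evidence.

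RNA came from the cerebral cortex of C57BL/6J mice at postnatal day 1. Libraries labelled cKO carried both floxed alleles of Mkk7 together with Emx1-Cre (Mkk7flox/flox Emx1-Cre), and libraries labelled Control carried the same floxed alleles without Cre (Mkk7flox/flox). There were 2 libraries per label, replicates 2 and 3 of each, with 19421470 to 22511175 counts. The Emx1 driver acts in progenitors of the dorsal telencephalon, so that their offspring, excitatory neurons and glia, carry the recombined allele. Cortical somatostatin neurons are born in the medial ganglionic eminence, outside that lineage.

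Somatostatin is cut from a precursor by prohormone convertases and released from dense-core vesicles. It binds a family of inhibitory G-protein coupled receptors, which lower cyclic AMP, open inwardly rectifying potassium channels and close calcium channels. Cortistatin is a related peptide that binds the same receptors. In the mature cortex somatostatin marks a class of inhibitory neurons that contact dendrites. In the developing mouse cortex, Sstr2 RNA is known from intermediate progenitors and young neurons.

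The ligands were close in the part of the gene that encodes the receptor-binding peptide. The last 14 codons before the stop of each precursor are shown for that reason, from GENCODE M21 transcripts on GRCm38, with capitals at the bases that are identical when Cort is shifted by 1 codon. The stretch of Sst lies at chr16:23889732-23889773 and that of Cort at chr4:149125267-149125308, both on the minus strand and each within 1 exon.
Sst: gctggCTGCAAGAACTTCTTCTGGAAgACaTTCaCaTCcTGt
Cort: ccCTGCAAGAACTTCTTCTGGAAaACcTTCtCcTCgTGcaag
Over the 39 aligned bases 31 were identical (79.5%), and 11 of 13 aligned codons encoded the same residue. The precursors are 116 residues (Sst) and 109 residues (Cort) long.

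The promoter of Sst holds the cyclic AMP response element (CRE) through which the factor CREB is known to act, and the promoter of Sstr2 held the same letters. RefSeq promoters (GRCm38.p6, 250 bases before to 50 after the start) were at hand for 5 of the 7 genes, Sst, Cort, Sstr2, Sstr3 and Sstr4. Sstr1 and Sstr5 had no entry. The palindrome TGACGTCA, which reads the same on both strands, began 48 bases before the start of Sst and 58 bases before that of Sstr2. The windows below have the palindrome in capitals and are shown because the genes that carry it differed between the groups in opposite directions. They lie at chr16:23890874-23890903 (minus strand) and chr11:113619258-113619287 (plus strand).
Sst: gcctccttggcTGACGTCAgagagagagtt
Sstr2: ccaagctgccgTGACGTCAcgggcgggggc
GENCODE M21 starts the Sst transcript 114 bases further upstream than RefSeq, so that its first exon takes in the window. Of 32851 RefSeq promoters, 588 (1.79%) held the palindrome. The half-site TGACG, on either strand and inside or outside the palindrome, was in 20.8% of them. Half-sites lay outside a palindrome in the promoter of Cort and in 1 of the 2 promoters of Sstr3, and there was none in that of Sstr4. The median log2 fold change was -0.05 in the 408 tested genes with the palindrome (177 positive, 231 negative), against -0.03 over all 12015 tested genes with a RefSeq promoter (5629 positive, 6386 negative), a set chosen after the data were seen.

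Some facts of the 4 libraries bear on every value below. Map2k7, which encodes MKK7, stood at 47.9 and 48.2 CPM (counts scaled to a library of 1e+06) in the libraries labelled cKO and at 38.4 and 30.4 CPM in those labelled Control (log2 fold change 0.48, SE 0.18, edgeR adjusted p = 0.428). This goes against the label, but the sum over the gene includes reads outside any deleted part, so it checks nothing, and each direction given here rests on the labels alone. The library labelled cKO 3 had 0 counts of Xist and 985 of the Y-linked Ddx3y, and the other 3 had 1004 to 1218 of Xist and 0 of Ddx3y. Markers of excitatory cortical neurons were present throughout, with Neurod6 between 480 and 730 CPM and Tbr1 between 88.0 and 108 CPM. In bulk RNA, fewer cells of a type and less RNA per cell cannot be told apart.

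Sst was the most abundant of the 7 genes in every library, and it was lower in both libraries labelled cKO. Sst (ENSMUSG00000004366.5; chromosome 16, 23708323 to 23709708, GRCm39, minus strand) was counted 2707 and 2867 times in cKO 2 and cKO 3, against 4372 and 4001 times in Control 2 and Control 3. Scaled to library size this was 143 and 126 CPM with the cKO label and 223 and 203 CPM with the Control label. The groups did not overlap. The means were 134 ± 12.02 and 213 ± 13.8 CPM (SD, n = 2 each), a level in the libraries labelled cKO of 0.630 times that of the libraries labelled Control (log2 fold change -0.67, SE 0.13). Without cKO 3, which leaves libraries that all expressed Xist, the log2 fold change was -0.58.

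Cort, the gene of cortistatin, was read far less often and was not lower. Cort (ENSMUSG00000028971.5; chromosome 4, 149209491 to 149211220) had 76 and 58 counts in cKO 2 and cKO 3, against 50 and 46 in Control 2 and Control 3. The 95% exact Poisson intervals of these counts, which cover counting error only, ran from 44.0 to 75.0 for cKO 3 and from 37.1 to 65.9 for Control 2. The log2 fold change was 0.42 (SE 0.50), and without cKO 2 it was 0.06. The CPM values of the groups overlapped narrowly, with 2.540 in cKO 3 and 2.546 in Control 2. The TPM scale divides reads by transcript length and sets each library to 1e+06. In TPM the groups did not overlap, at 12.7 and 9.49 with the cKO label and 9.32 and 8.13 with the Control label. On this scale Sst exceeded Cort by 31.1 and 43.0 times in cKO 2 and cKO 3 and by 75.6 times in each library labelled Control.

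Sstr2 was the most abundant receptor gene in every library and was higher in both libraries labelled cKO. Sstr2 (ENSMUSG00000047904.7; chromosome 11, 113510168 to 113516854, plus strand) was counted 2076 and 2703 times in cKO 2 and cKO 3, against 1222 and 1159 times in Control 2 and Control 3. Its CPM values were 109 and 118 with the cKO label and 62.2 and 58.8 with the Control label. The groups did not overlap. The means were 114 ± 6.40 and 60.5 ± 2.40 CPM (SD, n = 2 each), a fold of 1.88 (log2 fold change 0.91, SE 0.13). Without cKO 3 the log2 fold change was 0.85.

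Sstr2 lies within Slc39a11, a zinc transporter gene of the opposite strand. In GENCODE M21 none of the Sstr2 exons overlapped an exon of Slc39a11, but the library kit does not mark the strand, so intronic reads of one gene cannot be told from the other's. Slc39a11 itself stood at 65.0 and 55.9 CPM in cKO 2 and cKO 3 and at 52.3 and 64.3 CPM in Control 2 and Control 3 (log2 fold change 0.05, SE 0.17). No other gene of the table overlapped a member. The nearest neighbour of Cort, Cenps, which encodes a centromere protein, lay 357 bases away on the same strand and had a log2 fold change of -0.14 (SE 0.27).

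Sstr1, the second receptor gene by level, went the way of the ligand Sst and not of Sstr2. Sstr1 (ENSMUSG00000035431.5; chromosome 12, 58258558 to 58261230) was counted 359 and 420 times in cKO 2 and cKO 3, against 631 and 527 times in Control 2 and Control 3. This was 18.9 and 18.4 CPM with the cKO label and 32.1 and 26.7 CPM with the Control label, without overlap. The log2 fold change of Sstr1 was -0.66 (SE 0.21), beside -0.67 for Sst, and it was -0.52 without Control 2.

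The remaining receptor genes were read rarely. Sstr3, whose protein sits in the primary cilium of neurons, had 61 counts in each library labelled cKO and 81 and 47 in those labelled Control, so that the groups overlapped. Its log2 fold change was -0.15 (SE 0.50), and 0.30 without Control 2. Sstr4 had 19 and 16 counts in cKO 2 and cKO 3 and 13 in each library labelled Control. Its log2 fold change was 0.36 (SE 0.81), and the Poisson intervals of all 4 counts overlapped, from 9.15 to 26.0 for cKO 3 and from 6.92 to 22.2 for Control 2. Sstr5, best known from the pituitary and the pancreatic islets, had 0 counts in cKO 2 (95% exact Poisson interval 0 to 3.69 counts) and 25 in cKO 3. It had 19 in Control 2 and 4 in Control 3. Its libraries differed more within each label than between the labels.

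**Figure D1:**
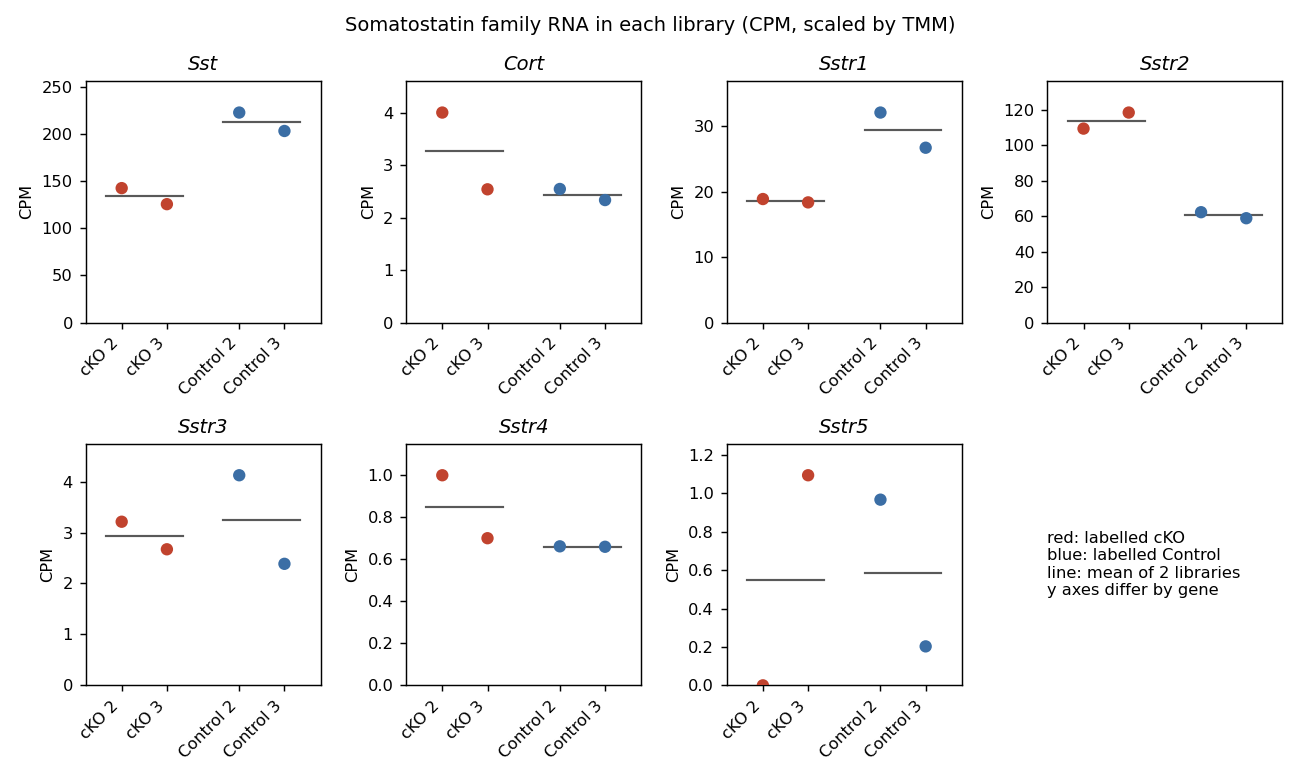
CPM of the 7 genes in each library, with cKO in red on the left and Control in blue on the right of each panel; lines mark the mean of 2 libraries and the y axes differ between panels. Sst and Sstr1 are lower and Sstr2 is higher in both libraries labelled cKO, while Cort, Sstr3 and Sstr5 overlap between the labels.

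None of the 7 genes passed the adjusted edgeR threshold of 0.05, which 0.00588% of the tested genes passed as higher and 0.0411% as lower. At an unadjusted p under 0.05 there was 1 higher member, Sstr2 (background 5.28%), and there were 2 lower ones, Sst and Sstr1 (background 5.66%). DESeq2 called Sstr2 higher (background 0.47%) and Sst lower (background 0.617%), and limma-voom called none of the 7 (background 0.0176% higher and 0.0294% lower). Both libraries labelled cKO lay above both labelled Control for Sstr2 and Sstr4, as for 22% of the tested genes, and below them for Sst and Sstr1, as for 22.2%. Since the members were chosen on this comparison, nothing is read from these counts.

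Per transcript length, the family kept 1 order in the 4 libraries down to Cort. Over the 4 libraries Sst ranged from 397 to 704 TPM, Sstr2 from 37.5 to 82.9 TPM, Sstr1 from 14.2 to 26.1 TPM and Cort from 8.13 to 12.7 TPM, ranges that did not overlap. Sstr3 (0.734 to 1.31 TPM) and Sstr4 (0.746 to 1.06 TPM) could not be placed in order, and Sstr5 was lowest in each library, at 0 to 0.648 TPM.

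Both the make-up and the sum of the receptor RNA differed between the labels without overlap. Sstr2 accounted for 80.2% and 82.0% of the summed receptor TPM in cKO 2 and cKO 3, against 58.4% and 62.3% in Control 2 and Control 3. Sstr1 accounted for 17.4% and 15.6% with the cKO label and for 37.8% and 35.05% with the Control label. The ratio of Sstr2 to Sstr1 was 4.62 and 5.24 in the libraries labelled cKO and 1.54 and 1.78 in those labelled Control, and a ratio within a library does not depend on how libraries are scaled. The 5 receptor genes summed to 82.0 and 101 TPM with the cKO label and to 69.0 and 60.2 TPM with the Control label. Sst exceeded Sstr2 by 6.03 and 4.93 times in cKO 2 and cKO 3 and by 17.5 and 16.4 times in Control 2 and Control 3. Each of these ratios contains the values that chose the genes.

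**Figure D2:**
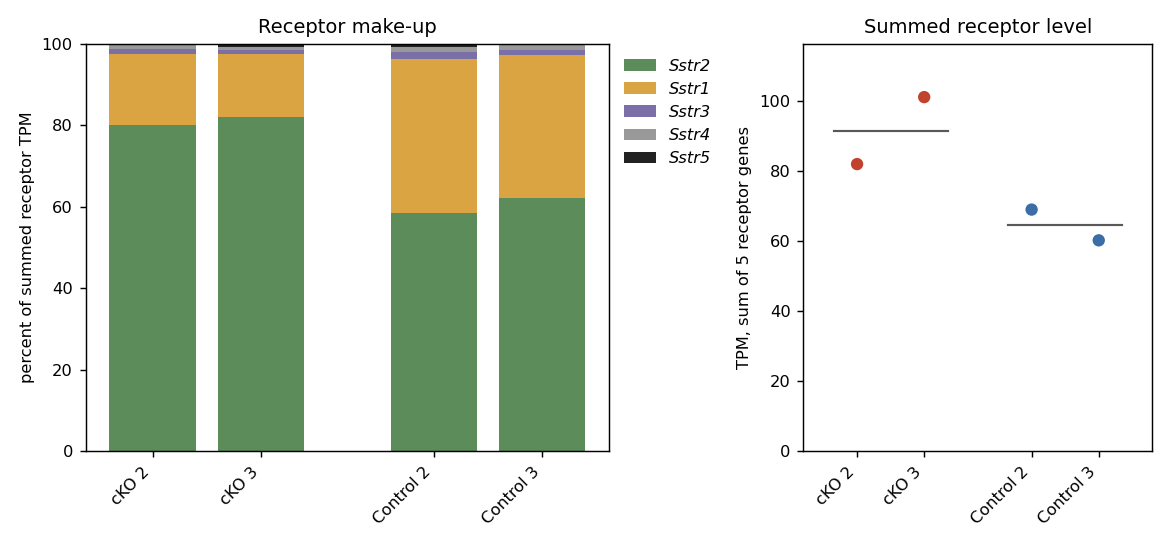
Left, the share of each receptor gene in the summed receptor TPM of a library, in percent; right, the summed TPM of the 5 receptor genes, with lines at the mean of 2 libraries. Sstr2 holds 80.2% and 82.0% of the sum in the libraries labelled cKO, against 58.4% and 62.3% in those labelled Control.

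The apparent lengths implied by counts and TPM varied little between libraries. Sst, whose single transcript cannot change in length, came out at 493 and 479 bases in cKO 2 and cKO 3 and at 478 and 493 bases in Control 2 and Control 3. This shows how far the estimate varies between libraries. The deposited length of Sst is 721 bases, so apparent lengths are compared between libraries and are not read as transcript lengths. Sstr2 has 3 annotated transcripts in the table, and its apparent length was 2282 and 2224 bases in cKO 2 and cKO 3 and 2337 and 2341 bases in Control 2 and Control 3. Sstr1, with 2 transcripts, stood at 1822 and 1812 bases with the cKO label and at 1864 and 1893 bases with the Control label.

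Sst can be set against genes that mark the cells which express it. Lhx6, a transcription factor gene of neurons from the medial ganglionic eminence, stood at 104 and 115 CPM in cKO 2 and cKO 3 and at 122 and 127 CPM in Control 2 and Control 3 (log2 fold change -0.18, SE 0.12). Sst per Lhx6 was 1.37 and 1.09 with the cKO label and 1.83 and 1.60 with the Control label, without overlap. The genes of the GABA-making enzymes, Gad1 and Gad2, which all inhibitory neurons use, were at -0.59 (SE 0.21) and -0.60 (SE 0.17) on the log2 fold change scale. Sst per Gad2 was 4.11 and 3.26 in the libraries labelled cKO and 3.69 and 4.01 in those labelled Control, and these overlapped. So did Sst per Gad1, at 2.46 and 1.71 with the cKO label and 1.90 and 2.54 with the Control label.

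Against the summed CPM of Lhx6, Gad1, Gad2 and Slc32a1, the gene of the vesicular GABA transporter, Sst stood at 0.708 and 0.542 in cKO 2 and cKO 3 and at 0.717 and 0.764 in Control 2 and Control 3. The log2 ratio of the means was -0.25, and -0.07 without cKO 3, so its size rested on that library. Against Slc32a1 alone the ratio was higher with the cKO label, at 27.9 and 29.9, than with the Control label, at 20.1 and 25.5. The relative level of Sst thus depended on the marker gene it was set against.

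**Figure D3:**
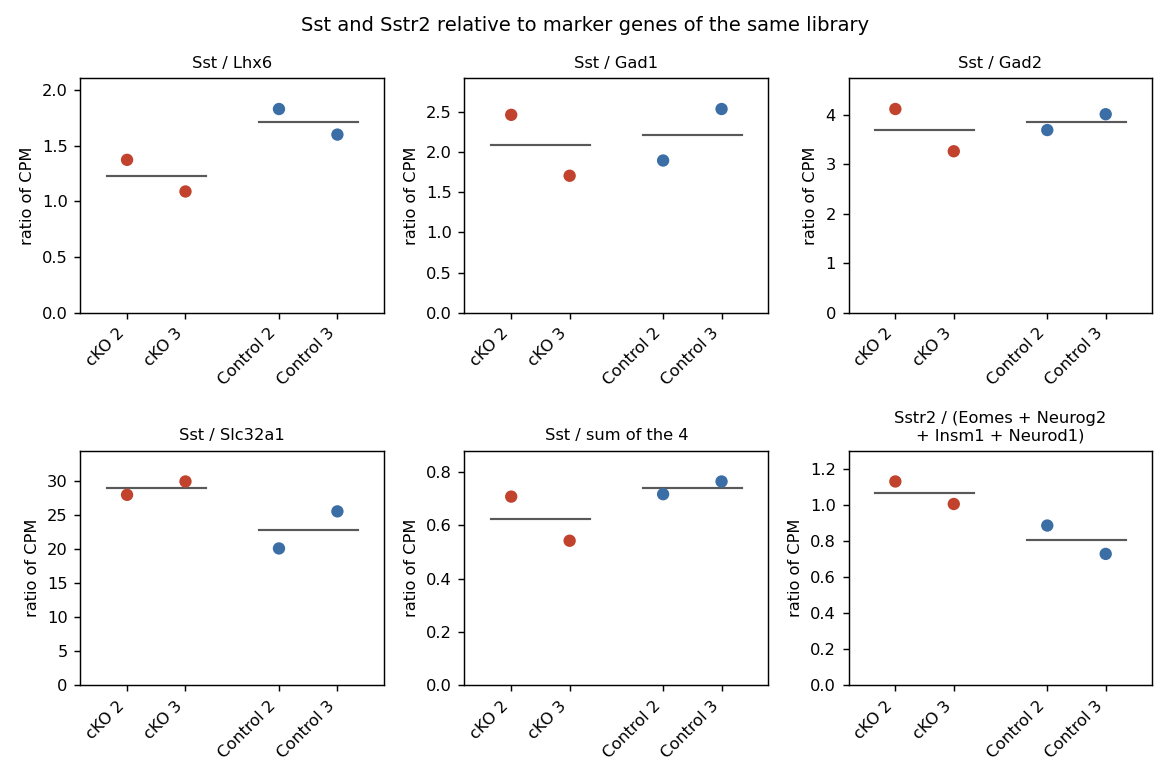
Ratio of CPM in each library of Sst to Lhx6, Gad1, Gad2, Slc32a1 and their sum, and of Sstr2 to the sum of Eomes, Neurog2, Insm1 and Neurod1; cKO is on the left in red, Control on the right in blue, and lines mark means of 2 libraries. Sst per Lhx6 is lower with the cKO label (1.37 and 1.09 against 1.83 and 1.60), Sst per Gad1 and per Gad2 overlap, and Sstr2 per newborn-neuron marker is higher (1.13 and 1.01 against 0.887 and 0.729).

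The wider list of medial ganglionic eminence and SST interneuron genes held 8 positive and 23 negative fold changes among 31 tested genes, with a median of -0.20, beside -0.00 over all tested genes. None was called by edgeR, DESeq2 or limma-voom. At an unadjusted p under 0.05 there were 0 higher and 10 lower, beside 5.28% and 5.66% of all tested genes. The smallest p belonged to Tac1, the gene of substance P, at 1.53 and 9.68 CPM in cKO 2 and cKO 3 and 56.2 and 37.6 CPM in Control 2 and Control 3 (log2 fold change -3.04, SE 0.67, edgeR adjusted p = 0.28). Dlx6, a homeobox gene of GABA neurons, followed (log2 fold change -2.42, SE 0.58, edgeR adjusted p = 0.301) and Gad2 came next. Other genes found in somatostatin neurons were spread out. Crhbp, Calb1, Chodl and Cbln4 had log2 fold changes of -0.91 (SE 0.37), -0.65 (SE 0.20), -0.46 (SE 0.37) and -0.36 (SE 0.35). Sox6, Satb1, Npy and Nos1 had values of 0.03 (SE 0.22), 0.13 (SE 0.15), -0.03 (SE 0.18) and 0.05 (SE 0.22), and Nkx2-1, the patterning gene of the medial ganglionic eminence, stood at -1.57 (SE 0.51). Npy, a peptide that many somatostatin neurons also make, stood at 272 and 183 CPM with the cKO label and 234 and 230 CPM with the Control label.

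Striatal genes were lower in the same libraries as Sst, and the striatum has somatostatin neurons of its own. All 22 tested genes of the striatal list had negative fold changes, with a median of -1.54, and their summed level was 473 and 493 CPM in cKO 2 and cKO 3 against 1108 and 852 CPM in Control 2 and Control 3. No striatal marker was at 0 in all libraries. Rxrg, a retinoid receptor gene, was called lower by edgeR (log2 fold change -3.73, SE 0.38, adjusted p = 0.0414, background 0.0411%). DESeq2 called 12 of the 22 lower (background 0.617%) and limma-voom 1 (background 0.0294%). The endopeptidase gene Ecel1 stood at -1.55 (SE 0.23, edgeR adjusted p = 0.18). Other striatal genes differed less. Drd1 and Rgs9 stood at -0.46 (SE 0.26) and -0.31 (SE 0.28). Pde10a and Adcy5, at -0.13 (SE 0.23) and -0.09 (SE 0.19), overlapped between the labels. Tac1 is in both the striatal and the interneuron list, and striatal neurons also use Gad1, Gad2 and Slc32a1. The part of striatal tissue in the values of Sst and Sstr1 was not tested.

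Markers of other tissues and cells were counted beside the family. Of the hypothalamic list, a region rich in somatostatin, 3 of 14 genes were tested and all were negative, with summed levels of 7.21 and 8.01 CPM in the libraries labelled cKO against 19.0 and 31.8 CPM in those labelled Control. Avp, the vasopressin gene, stood at 0.895 and 2.01 CPM in cKO 2 and cKO 3 and at 4.94 and 19.5 CPM in Control 2 and Control 3. It thus made up most of the sum in Control 3. Avp was lower by DESeq2 only (log2 fold change -3.05, SE 0.72, edgeR adjusted p = 0.301). Trh did not overlap between the labels, Pomc did, and Kiss1 was at 0 in every library. Over 14 interneuron genes of the caudal ganglionic eminence the median was -0.07, with Lamp5 at -1.91 (SE 0.53, edgeR adjusted p = 0.339) and none called by any of the 3 tools. At an unadjusted p under 0.05 there were 1 higher (Ndnf) and 1 lower (Lamp5). The lists of microglia (median -0.19), endothelium and pericytes (0.34), meningeal fibroblasts (0.32), astrocytes (-0.49) and Cajal-Retzius cells (-0.15) held no edgeR or limma-voom call. DESeq2 called Slc2a1, the glucose transporter of brain endothelium, higher and the apolipoprotein gene Apoe lower. At an unadjusted p under 0.05 these 5 lists held 0, 2, 3, 1 and 2 higher and 0, 0, 0, 5 and 0 lower genes. The shares of all tested genes at this threshold were 5.28% higher and 5.66% lower. The part of these cells in the members' values was not tested.

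Sstr2 was set against genes of the cells in which it is known during cortical development. Eomes, the defining transcription factor gene of intermediate progenitors, stood at 10.1 and 13.7 CPM in cKO 2 and cKO 3 and at 7.79 and 7.41 CPM in Control 2 and Control 3 (log2 fold change 0.65, SE 0.30). Neurog2, Insm1 and Neurod1 had log2 fold changes of 0.75 (SE 0.27), 0.60 (SE 0.18) and 0.35 (SE 0.24). Neurod1, with the smallest of these, had the highest CPM of the summed genes in each library. Sstr2 relative to the summed CPM of Eomes, Neurog2, Insm1 and Neurod1 was 1.13 and 1.01 with the cKO label and 0.887 and 0.729 with the Control label. The log2 ratio of the means was 0.40, between 0.27 and 0.55 when a library was left out, and 0.29 with Eomes alone. This ratio contains the value that chose Sstr2, and its size depends on the markers summed. Genes of newborn neurons outside the sum were spread out. Nhlh2, which is also in the Cajal-Retzius list, had a log2 fold change of 0.96 (SE 0.28), beside 0.91 for Sstr2. Elavl2, Rnd2 and Hes6 had values of -0.03 (SE 0.15), -0.01 (SE 0.13) and 0.01 (SE 0.16), and Btg2 had -0.30 (SE 0.33).

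In the list of intermediate progenitor and newborn neuron genes 13 of 18 tested genes were positive, with a median log2 fold change of 0.30. None was called by edgeR or limma-voom, and DESeq2 called Sox11 (background 0.47%). At an unadjusted p under 0.05 there were 6 higher and 0 lower, beside 5.28% and 5.66% of all tested genes. Sox11 encodes a SoxC transcription factor of immature neurons and stood at 680 and 697 CPM in the libraries labelled cKO and 465 and 377 CPM in those labelled Control (log2 fold change 0.71, SE 0.12, edgeR adjusted p = 0.226). Igfbpl1, a gene of newborn neurons like Nhlh2, stood at 0.53 (SE 0.14). Of the 14 projection neuron genes 12 were positive (median 0.20), among them Neurod6 (0.44, SE 0.12), Neurod2 (0.56, SE 0.16), which DESeq2 called, and Bhlhe22 (0.61, SE 0.19). edgeR and limma-voom called none of the 14. At an unadjusted p under 0.05 there were 5 higher and 1 lower, beside the same 5.28% and 5.66% of all tested genes.

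Genes for the making and the sensing of the peptide differed in both directions. Of 20 genes for prohormone processing and dense-core vesicles, 8 were positive and 12 negative (median log2 fold change -0.07). The groups did not overlap for 2 higher and 8 lower genes of these 20, beside 22% and 22.2% of all tested genes. Neither edgeR nor limma-voom called any. At an unadjusted p under 0.05 there was 1 higher gene, Syt4, beside 5.28% of all tested genes, and DESeq2 also called it. Syt4 encodes a synaptotagmin of dense-core vesicles. It stood at 556 and 502 CPM with the cKO label and 388 and 380 CPM with the Control label (log2 fold change 0.46, SE 0.10). Ptprn and Cadps2, which encode a vesicle membrane protein and a release factor, had values of -0.44 (SE 0.21) and -0.53 (SE 0.25). Of 35 tested genes of receptor signalling (G proteins, adenylyl cyclases, potassium and calcium channels, phosphatases and arrestins) 15 were positive and 20 negative, with a median of -0.04. None of the 3 tools called any of these 35, and 1 had an unadjusted p under 0.05, the inhibitory G-protein gene Gnai3 (log2 fold change 0.39, SE 0.12). Gnb1 and Gnai1 followed at 0.22 (SE 0.10) and 0.25 (SE 0.12).

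Factors that act on the Sst promoter, CREB with its kinase and co-activators and homeobox and chromatin factors such as PBX, MEIS and SATB1, had a median log2 fold change of 0.07 over 19 genes. None was called by any of the 3 tools. At an unadjusted p under 0.05 there was 1 lower gene, Meis1, beside 5.66% of all tested genes. Meis1 stood at 5.11 and 5.08 CPM with the cKO label and 15.8 and 8.43 CPM with the Control label (log2 fold change -1.25, SE 0.38). The protein kinase A subunit gene Prkar1a and the CREB co-activator gene Crtc1 had values of 0.20 (SE 0.09) and -0.29 (SE 0.15).

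Over 20 other genes of the neuropeptide list, which also holds the growth factor gene Igf1, 8 were positive and 12 negative. The median was -0.60 (log2), and striatal peptides led the list. Beside Tac1, the enkephalin gene Penk stood at 11.4 and 20.8 CPM in cKO 2 and cKO 3 and 62.1 and 40.6 CPM in Control 2 and Control 3 (log2 fold change -1.67, SE 0.33, edgeR adjusted p = 0.26). Agt, the angiotensinogen gene, had a log2 fold change of -1.04 (SE 0.35). DESeq2 called Penk and the other 2 tools none. At an unadjusted p under 0.05 there were 0 higher and 5 lower, beside 5.28% and 5.66% of all tested genes. Other peptide receptor genes had a median of 0.01 over 17 genes. Vipr1, a receptor gene for vasoactive intestinal peptide, stood at 6.95 and 5.65 CPM with the cKO label and 1.63 and 0.812 CPM with the Control label (log2 fold change 2.36, SE 0.51, edgeR adjusted p = 0.28). DESeq2 called Vipr1, and it was the 1 gene of this list with an unadjusted p under 0.05. Cckbr and Tacr1, receptor genes for cholecystokinin and substance P, had values of -0.97 (SE 0.42) and -0.89 (SE 0.40).

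**Figure D4:**
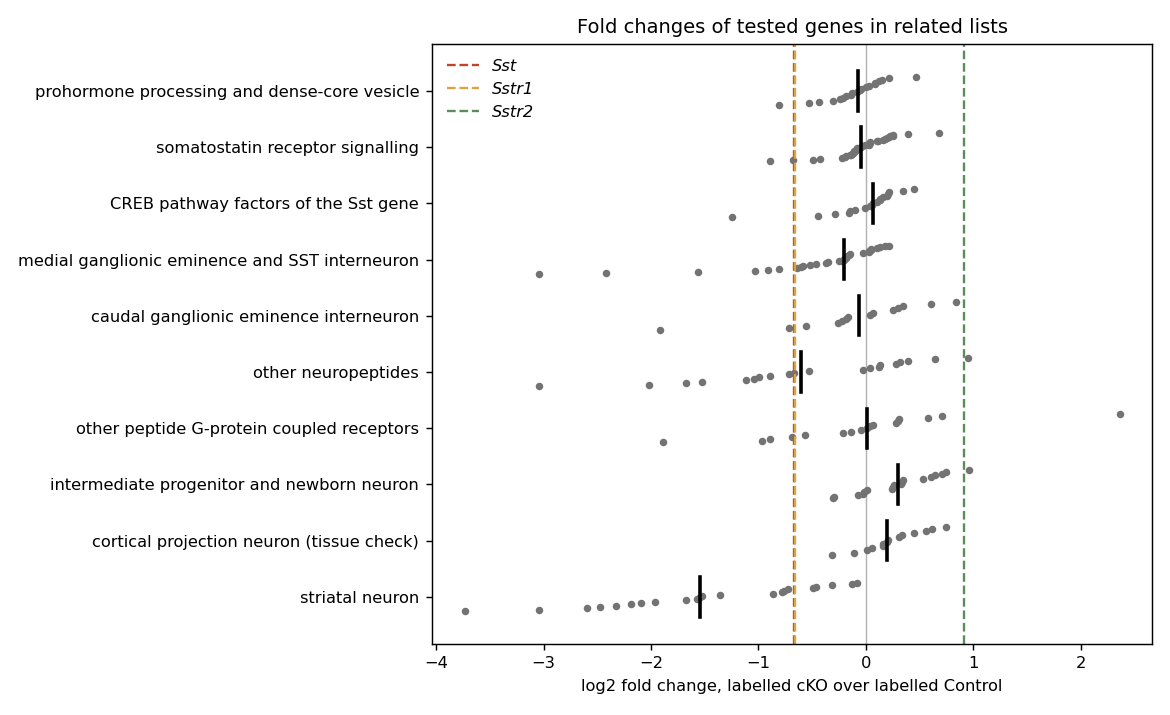
Log2 fold change, labelled cKO over labelled Control, of each tested gene (dots) in 10 gene lists, with a black bar at the median of a list and dashed lines at Sst, Sstr1 and Sstr2. The line of Sstr2 (0.91) lies to the right of every median. Those of Sst (-0.67) and Sstr1 (-0.66) lie between the medians of the interneuron list (-0.20) and the striatal list (-1.54). They are close to that of the neuropeptide list (-0.60) with all libraries, but that median was between -0.39 and -0.23 when a library was left out.

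Genes with the pattern most like Sst over the 4 libraries were Lrrc3b, Wdhd1, Smim18, Ccdc106 and Smim11, among 11067 named protein-coding genes with a mean of at least 5 CPM. Likeness was the root mean square difference of log2 CPM centred over the libraries, which was 0.02 for Lrrc3b and 0.03 for the other 4. There were 70 genes within 0.1 of Sst. For Sstr2 the nearest were Cdt1 (0.03), St3gal6, Scai, Nfia and Col5a2 (0.06 to 0.07), with 17 genes within 0.1. With 4 libraries such likeness is a description of these libraries.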

How the data were processed

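Per the labels' protocols, RNA purified with TRIzol and cleared of DNA went into SMART-Seq v4 libraries. Per the submitters' processing notes the authors used DRAGEN and the build GRCm39; the sources used here give no version or annotation. For each gene and library the authors deposited an estimated count and a TPM value, the TPM scaled to 1e+06 per library, beside a gene length.

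Estimated counts were rounded to whole numbers and filtered with edgeR 4.0.16 (R 4.3.3) defaults; 17017 genes were kept, scaled by TMM, and genotypes were compared across all genes with the quasi-likelihood test and Benjamini-Hochberg adjustment at 0.05. SE is the size of the log2 fold change over the root of F. CPM uses TMM-scaled library sizes. Apparent length is counts over TPM, relative to the median of single-transcript genes. DESeq2 1.42.0, limma-voom (limma 3.58.1), other scalings and filters, a replicate block and leaving out each library were alternatives. On simulated counts for these 17017 genes the edgeR test called 48 of the 100 genes given a 2-fold change and 89 of the 100 given a 4-fold change. It made 10 false calls among 16817 unchanged genes. The changed genes were drawn from those with a mean of at least 5 CPM. The rates of calling therefore do not cover lower genes, such as Cort, Sstr3, Sstr4 and Sstr5.

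The members and the gene lists (265 genes, all matched, 1 by an older symbol) were chosen with earlier results of these data known. Named genes are the members, the genes of the ratios, up to 3 genes with the smallest p per list, the 5 genes most like Sst and Sstr2, and genes beside a member; others were named after their values were seen. A gene named by this rule is left out of the text. The labels do not say that libraries came from separate animals, so p-values measure the spread between these libraries. By Xist and Ddx3y, cKO 2 and cKO 3 differed in sex and were not the same animal, so their spread includes a sex difference. The spread between Control 2 and Control 3 may be technical. The libraries of a group were not duplicates (chi-square per degree of freedom 27.7 for cKO and 12.8 for Control).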

Additional observations from a re-analysis of the deposited data

How the results depend on the processing

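Sst kept its sign in all 14 alternatives (-0.76 to -0.58), as did Sstr2 (0.85 to 0.97), Sstr1 (-0.79 to -0.52) and Cort (0.06 to 0.71). Sstr3 turned positive without Control 2 (0.30), and Sstr5 ranged from -6.52 to 1.42. The counts of called genes were less stable. Against 1 higher and 7 lower genes, 21 and 37 were called with no filter and 80 and 105 by DESeq2; limma-voom called 3 higher, and a mean CPM of at least 1 gave 2 higher. Leaving out a library left 0 higher and 0 to 2 lower genes, with the lone library assumed to vary like the other group. The cause was not tested. Sst relative to the interneuron markers was -0.48 with Lhx6 alone and between -0.450 and -0.0656 when a library was left out (the last without cKO 3). The medians of 5 lists (receptor signalling, CREB factors, caudal ganglionic eminence, peptide receptors and Cajal-Retzius) changed sign in 1 to 5 of 11 alternatives. With a replicate block the log2 fold changes were -0.67 for Sst and 0.91 for Sstr2, and 1 higher and 6 lower genes were called. The labels tie the numbers to no litter or batch, and the replicate differences of the groups had a correlation of 0.01 across genes. Cort, Sstr3, Sstr4 and Sstr5 had 0 to 81 counts per library, and for Sstr3 and Sstr5 libraries of the same label lay further apart than their counting intervals.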
